A study of Mus musculus with 16 samples.

Results

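The cortical transcriptome of 8 mice that carry the Dp16 duplication was set against that of 8 mice that do not, averaged over the presence and absence of the 5xFAD transgenes. Dp16 mice hold an extra copy of distal mouse chromosome 16, a region that corresponds to most of the long arm of human chromosome 21, and are used as a model of Down syndrome. The 8 Dp16-carrying libraries, of 16 in all, were 4 labelled Dp16 and 4 labelled 5xFAD-Dp16, and the 8 without Dp16 were 4 labelled 5xFAD and 4 from wild-type C57BL/6J mice. Each group held 2 females and 2 males, all aged 9 months and with no treatment recorded, and each mouse gave 1 library of polyadenylated RNA from its brain cortex. As background, the 5xFAD mouse expresses human APP with familial Alzheimer's disease mutations from a neuronal Thy1 promoter cassette, so human and mouse amyloid precursor may share reads in the 5xFAD libraries. Libraries were assigned to the 2 sides by genotype label alone, and no measured value entered that assignment.

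With 3 gene copies in place of 2, a gene whose RNA follows its copy number is expressed at 1.5 times the usual level, which is 0.585 on the log2 scale. The segment carries genes of several kinds that are studied in Down syndrome. Among them are receptor chains for interferons, the kinase gene Dyrk1a, the calcineurin regulator Rcan1 and the amyloid precursor gene App. The human chromosome 21 genes whose mouse counterparts lie on chromosomes 10 and 17, Cbs among them, stay at 2 copies in Dp16 mice. The pooled comparison asks what the duplication does on average, and has 8 mice a side where each of the pairs within it has 4.

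Library totals were 16874481 to 22912168 counts, and 17555 genes passed the count filter. Levels are given as CPM (counts scaled to a common library size) after TMM scaling. A gene was called where edgeR's quasi-likelihood test, with sex and 5xFAD status as covariates, gave a Benjamini-Hochberg adjusted p under 0.05. Differences between groups are log2 fold changes of Dp16-carrying libraries over those without, with the standard error (SE). Libraries differed in how strongly their levels depended on gene length, measured as a length slope: per library, the deviation of each gene's log2 CPM from its mean was regressed on log2 gene length. Wild-type replicate 3 stood apart with a slope of -0.439, and Dp16 replicates 4 and 3 were next at -0.181 and -0.171. The slope averaged -0.0109 ± 0.133 in Dp16-carrying libraries and 0.0109 ± 0.226 in those without (SD, n = 8 each; exact permutation test, two-sided p = 0.823). The slope was also entered as a covariate, and results are given from both fits where a call depended on it. With the slope in the model the common biological coefficient of variation was 0.161, against 0.286 without it.

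The pooled Dp16 effect was concentrated on the triplicated segment, which runs for 22.4 Mb on chromosome 16 (75540514 to 97962622, GRCm38) between Lipi and Zbtb21, both included. Of 17555 genes, 16 were called (0.0911%), of which 15 were higher (0.0854%) and 1 was lower (0.0057%) in Dp16-carrying cortex. The segment held 13 of the higher genes among its 109 tested genes (11.9%). The median log2 fold change over those 109 genes was 0.556 (interquartile range 0.375 to 0.664), a 1.47-fold level, and 100 of the 109 lay above 0. Over the other 425 tested genes of chromosome 16 the median was -0.00615, and over all genes tested it was -0.016. Without the slope, 812 of the 17555 genes had an unadjusted p under 0.05 (edgeR, 4.63%), and outside the segment the share was 4.24%. The counts of such genes in the lists below are to be read beside these shares.

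The fit with the length slope called 192 genes (1.09%), 105 higher (0.598%) and 87 lower (0.496%). In that fit 66 of the 109 segment genes were called (60.6%), each of them higher, with a segment median of 0.58, and the 16 genes called without the slope were all among the 192. Without the 3 libraries of lowest slope, the fit called 51 genes, 36 of them in the segment, and the segment median was 0.60. Leaving out wild-type replicate 3 alone gave 36 calls, 26 of them in the segment. DESeq2 and voom, fitted without the slope, both called more genes than edgeR without it, voom the most. Their totals over all genes are in the last section, and the calls within lists below are to be read beside them.

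The dosage difference was visible in single libraries. Segment genes took 0.918% to 1.0% of all counts in Dp16-carrying libraries (median 0.987%), against 0.591% to 0.668% in those without (median 0.631%). The sides did not overlap, and the ratio of the means was 1.54. Over the 82 better expressed segment genes, the median deviation of a library ran from 0.51 to 0.62 on the log2 scale in Dp16-carrying libraries and from -0.03 to 0.11 in the others. The upper end of the second range was wild-type replicate 3. The same measure over the rest of chromosome 16 stayed between -0.03 and 0.04 in all 16 libraries.

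**Figure D1:**
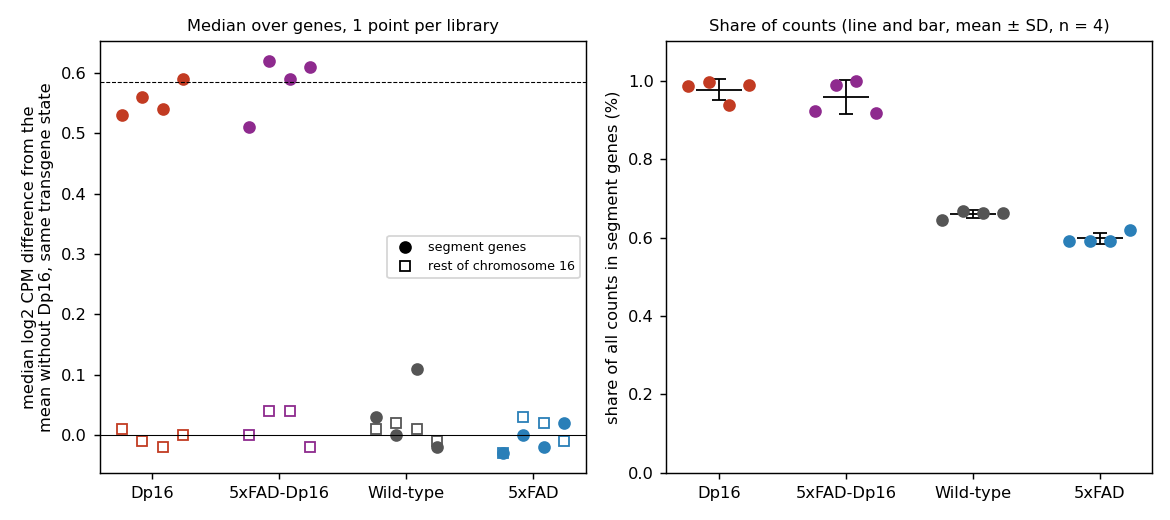
Left, the median log2 CPM difference of each library from the mean of libraries without Dp16 in the same transgene state, for segment genes (filled circles) and the rest of chromosome 16 (open squares), with a dashed line at 1.5-fold. Right, the share of all counts in segment genes as a percentage, 1 point per library with the group mean and SD (n = 4). The 8 Dp16-carrying libraries lie at 0.918% to 1.0% and the 8 others at 0.591% to 0.668%.

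The promoters of 3 segment genes are shown first, 2 that rose and Olig2, which lay near 0. Each is the 250 bases upstream of the RefSeq transcript start (GRCm38.p6), 5′ to 3′ on the gene's strand, with motif matches on either strand in capitals. The Ifnar1 promoter (chr16:91484965-91485214, plus strand) has 2 matches to the ETS motif CCGGAAG. The region upstream of the more downstream of 2 Rcan1 starts (chr16:92400079-92400328, minus strand) has 2 matches to the NFAT core GGAAAA, and the 250 bases before the other start have 0. The Olig2 promoter (chr16:91225300-91225549, plus strand) has 2 matches to the GC box GGGCGG.
Ifnar1: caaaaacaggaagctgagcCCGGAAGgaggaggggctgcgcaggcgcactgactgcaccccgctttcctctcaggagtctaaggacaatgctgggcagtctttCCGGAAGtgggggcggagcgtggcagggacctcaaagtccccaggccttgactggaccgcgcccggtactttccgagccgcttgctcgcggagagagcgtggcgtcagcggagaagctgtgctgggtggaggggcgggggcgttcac
Rcan1: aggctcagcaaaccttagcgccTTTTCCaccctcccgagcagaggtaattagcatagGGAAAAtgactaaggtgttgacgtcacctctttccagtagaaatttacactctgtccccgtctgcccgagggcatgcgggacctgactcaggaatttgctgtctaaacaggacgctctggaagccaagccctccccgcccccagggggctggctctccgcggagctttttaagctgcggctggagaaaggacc
Olig2: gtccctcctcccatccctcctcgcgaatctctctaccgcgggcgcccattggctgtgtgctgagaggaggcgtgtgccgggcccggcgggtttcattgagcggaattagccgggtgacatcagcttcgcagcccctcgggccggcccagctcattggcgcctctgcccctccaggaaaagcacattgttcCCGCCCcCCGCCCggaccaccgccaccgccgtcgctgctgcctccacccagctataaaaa
Of the 32851 promoters in the RefSeq table, 6.91% held the ETS letters, 20.4% the NFAT core and 32.7% the GC box. For the 81 segment genes with an entry, whose 107 promoters could be read, the shares were 15%, 21.5% and 52.3%, and for the 16052 promoters of all tested genes with an entry they were 11.4%, 18.6% and 53.7%. A match to these letters is a description and shows no binding.

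Ifnar1 and Ifnar2 encode the chains of the type I interferon receptor, Ifngr2 a chain of the interferon-gamma receptor and Il10rb a chain shared by receptors of the interleukin-10 family. Both Ifnar1 and Ifngr2 rose, and all 4 rose in the fit with the length slope. Ifnar1 was at 44.8 to 55.6 CPM in Dp16-carrying libraries (median 51.6) and at 22.7 to 38.9 CPM in those without (median 33.2). The sides did not overlap, and the log2 fold change was 0.63 ± 0.09 (SE, n = 8 each; edgeR adjusted p = 0.00765). The difference was 0.62 between Dp16 and wild-type and 0.64 between 5xFAD-Dp16 and 5xFAD.

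Ifngr2, at 71.3 to 105.7 CPM with Dp16 (median 87.4) and 46.2 to 64.0 CPM without (median 53.9), also showed no overlap, with a log2 fold change of 0.66 ± 0.11 (edgeR adjusted p = 0.022). It stayed called in 5 of the 16 fits that left out 1 library each, in which its adjusted p ranged from 0.00688 to 0.0831. Il10rb was at 12.5 to 17.6 CPM with Dp16 and at 7.75 to 11.8 CPM without, again with no overlap. Its log2 fold change of 0.49 ± 0.10 passed the edgeR threshold with the length slope but not without it (edgeR adjusted p = 0.00731 and 0.111). Ifnar2 values overlapped, at 18.8 to 40.4 CPM with Dp16 and 12.3 to 24.2 CPM without, and its edgeR adjusted p was 0.111 without the slope and 0.00149 with it. DESeq2 and voom, both fitted without the slope, each called all 4 receptor genes.

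Of 46 tested interferon-stimulated genes outside the segment, 9 lay above 0 and none was called in either edgeR fit, by DESeq2 or by voom, while 1 had an unadjusted p under 0.05 in the edgeR fit without the slope. Their median was -0.10. The median was 0.16 between Dp16 and wild-type and -0.48 between 5xFAD-Dp16 and 5xFAD. The segment's own interferon-stimulated genes Mx1 and Mx2, of an antiviral GTPase family, are annotated as polymorphic pseudogenes and were scarce. Mx1 was at 0.386 to 3.59 CPM with Dp16 and 0.118 to 2.99 CPM without, with a log2 fold change of 0.51 ± 0.38 (edgeR adjusted p = 1.0). Mx2 was at 0.578 to 3.55 CPM with Dp16 and 0.376 to 3.67 CPM without, with 0.54 ± 0.41 (edgeR adjusted p = 1.0). Of 15 interferon and JAK-STAT signalling genes outside the segment, 1 lay above 0, none was called in either edgeR fit, by DESeq2 or by voom, and 0 had an unadjusted p under 0.05.

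The 11 tested genes of protein quality control all lay above 0, with a median of 0.67, and 5 rose; 10 rose in the fit with the slope. Dnajc28, a J-domain protein, was at 25.6 to 32.7 CPM with Dp16 (median 27.2) and 13.5 to 18.5 CPM without (median 17.2), with no overlap. Its log2 fold change was 0.76 ± 0.10 (edgeR adjusted p = 0.00577). Ttc3, an E3 ubiquitin ligase, was at 1153.8 to 1479.0 CPM with Dp16 (median 1321.1) and 790.3 to 1010.1 CPM without (median 851.8).

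The sides of Ttc3 did not overlap, and its log2 fold change was 0.59 ± 0.09 (edgeR adjusted p = 0.00929). Cct8, a subunit of the TRiC chaperonin, was at 259.0 to 361.0 CPM with Dp16 and 151.2 to 261.4 CPM without, so that the sides overlapped narrowly. It rose by 0.68 ± 0.11 (edgeR adjusted p = 0.0158). Cct8 overlaps the end of Usp16 on the other strand, and strand use in the counting was not given in the sources used here. Ltn1, the ribosome-associated E3 ligase known as listerin, rose by 0.52 ± 0.09, and Rwdd2b rose by 0.80 ± 0.14 (edgeR adjusted p = 0.022 for each). Cct8, Ltn1 and Rwdd2b were called in 9, 6 and 7 of the 16 fits that left out 1 library, with adjusted p up to 0.0588, 0.0989 and 0.0772. Wrb, which encodes a receptor for insertion of tail-anchored proteins into the endoplasmic reticulum, reached 0.72 ± 0.14 with an adjusted p of 0.0722, and of 2.21e-08 in edgeR's fit with the slope.

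Among 22 transcription and chromatin genes, 20 lay above 0 (median 0.52), 2 rose, and 14 rose with the slope in the model. The 2 were Brwd1, a bromodomain protein, and Dyrk1a, a kinase whose substrates include NFAT factors and splicing proteins. Brwd1 was at 80.1 to 106.4 CPM with Dp16 (median 96.8) and 59.5 to 78.0 CPM without (median 62.7), a log2 fold change of 0.59 ± 0.09 (edgeR adjusted p = 0.00765). Dyrk1a was at 93.0 to 125.1 CPM with Dp16 (median 108.3) and 60.1 to 86.8 CPM without (median 72.5), a log2 fold change of 0.59 ± 0.09 (edgeR adjusted p = 0.00874). Neither gene's sides overlapped. Morc3, a nuclear-body ATPase, also had its 8 Dp16-carrying libraries above the 8 others, with a log2 fold change of 0.55 ± 0.10 and an edgeR adjusted p of 0.0553. Hmgn1, a nucleosome-binding protein, and the transcription factor Ets2 had 0.57 ± 0.16 and 0.56 ± 0.17 without a call, and both were called with the slope (edgeR adjusted p = 8.97e-07 for each). Bach1, a repressor of antioxidant genes, was not called in either fit, at 0.28 ± 0.13 without the slope and 0.31 ± 0.10 with it.

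Rcan1, the inhibitor of the phosphatase calcineurin for which 1 of 2 promoters is printed above, was the called gene of the neuronal and synaptic class. It was at 85.7 to 109.0 CPM with Dp16 (median 96.2) and 52.8 to 70.9 CPM without (median 64.0). The sides did not overlap, and the log2 fold change was 0.65 ± 0.09 (edgeR adjusted p = 0.00765). The class held 15 tested genes with a median of 0.65, of which 14 lay above 0 and 11 rose with the slope in the model. Its median was 0.51 between Dp16 and wild-type and 0.76 between 5xFAD-Dp16 and 5xFAD. Of 15 genes of the calcineurin, NFAT and DYRK1A axis outside the segment, 6 lay above 0 and none was called in either edgeR fit or by DESeq2, against 2 by voom. Of these genes 2 had an unadjusted p under 0.05 in the edgeR fit without the slope, and the median was -0.04.

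App was at 1446.3 to 2385.5 CPM with Dp16 (median 1918.6) and 729.0 to 1670.2 CPM without (median 1286.3), with overlap between the sides. Its log2 fold change of 0.65 ± 0.17 did not pass the edgeR threshold (edgeR adjusted p = 0.377), and with the slope it was 0.71 ± 0.06 (edgeR adjusted p = 2.63e-07). DESeq2 and voom, both fitted without the slope, each called App. The fold change of App was 0.51 between Dp16 and wild-type and 0.79 between 5xFAD-Dp16 and 5xFAD. Other neuronal genes also had a smaller SE with the slope in the model. Synj1, a synaptic phosphoinositide phosphatase, was at 0.72 ± 0.07 with the slope and 0.63 ± 0.19 without it, and Pcp4, a calmodulin-binding protein, at 0.88 ± 0.08 and 0.84 ± 0.24 (edgeR adjusted p = 8.97e-07 and 2.63e-07 with the slope). Itsn1, an endocytic scaffold, was at 0.42 ± 0.06 with the slope and 0.33 ± 0.22 without it (edgeR adjusted p = 0.000129 with the slope).

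The remaining role classes lay close to the same median. Of 11 adhesion and junction genes, 11 lay above 0 (median 0.55), and Jam2, a junctional adhesion molecule, was called. Jam2 was at 98.3 to 113.4 CPM with Dp16 (median 102.0) and 51.2 to 90.2 CPM without (median 62.6), with no overlap and a log2 fold change of 0.67 ± 0.10 (edgeR adjusted p = 0.00765). Of 12 metabolic, mitochondrial and redox genes, 12 lay above 0 (median 0.57). Gart, a trifunctional enzyme of purine synthesis, was the called member, at 49.3 to 64.2 CPM with Dp16 and 32.3 to 46.9 CPM without, a log2 fold change of 0.58 ± 0.09 (edgeR adjusted p = 0.0108). With the slope, 11 of the 12 rose, among them Sod1, the cytosolic superoxide dismutase, at 0.49 ± 0.05 (edgeR adjusted p = 1.43e-06), whose 3′ end overlaps Scaf4. The list for RNA processing and cell division also held Tmem50b, a membrane protein. Of its 11 genes, 11 lay above 0 (median 0.54), and Tmem50b was the 1 called without the slope, at 0.66 ± 0.09 (edgeR adjusted p = 0.00577). The 30 segment genes in no role class had a median of 0.45, 24 above 0, and none was called by edgeR without the slope (10 had an unadjusted p under 0.05), against 8 with it, 4 by DESeq2 and 6 by voom.

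Genes whose 8 Dp16-carrying libraries all lay above the 8 others numbered 22 of 17555 (0.125%), of which 17 were segment genes (15.6% of those tested). Besides genes already described, these were Paxbp1, Son, Donson, Gm5678 and Zbtb21. Medians and calls are also given by position and by level. Over consecutive 5 Mb windows from the proximal end, the medians were 0.49, 0.64, 0.34, 0.59 and 0.55, over 14, 10, 18, 49 and 18 genes. In classes of 37, 36 and 36 genes of low, middle and high mean level the medians were 0.51, 0.53 and 0.62, while calls numbered 0, 2 and 11. In the high class 36 of 36 genes lay above 0 and 35 were called with the slope. Of the 69 segment genes whose mean log2 CPM was 3 or more, 58 had a log2 fold change between 0.4 and 0.8.

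The 50 tested genes just proximal to the segment had a median of 0.0, 25 above 0, with no call in either edgeR fit, by DESeq2 or by voom. The nearest with a mean log2 CPM over 1 was the axon guidance receptor gene Robo2, at 0.10 ± 0.14. Its lower coordinate lies 1.65 Mb before the segment. Distally 2 tested genes lay beyond Zbtb21, B230307C23Rik at 0.36 ± 0.30 and A630089N07Rik at 0.67 ± 0.32, neither of them called. Of the 384 genes annotated in the segment, 275 did not pass the count filter and 181 of those had no count in any library, so the counts above describe the genes expressed in cortex.

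**Figure D2:**
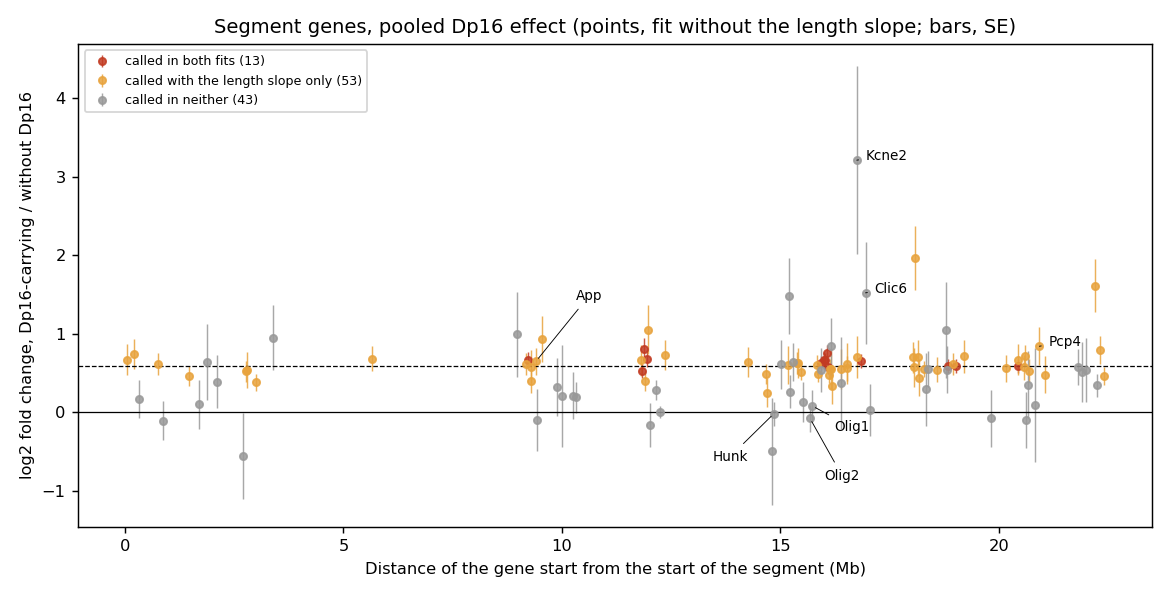
Log2 fold change of Dp16-carrying over other libraries (points, fit without the length slope; bars, SE) for the 109 tested segment genes. The horizontal axis is the distance of the gene's lower coordinate from the start of the segment in Mb. The dashed line marks 1.5-fold. Called genes cluster near that line, and Olig1, Olig2 and Hunk lie near 0.

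A few expressed segment genes lay below the copy ratio in the fit with the slope. Each segment gene was tested against a 1.5-fold level, and genes outside the segment against no change, so a share of all genes mixes both. Of the 109 segment genes, 0 were called without the slope (10 had an unadjusted p under 0.05, and 0.0114% of all genes in that fit were called). With the slope, 4 of the 109 were called and all 4 lay below 1.5-fold (0.416% of all genes in that fit were called). Of the 19 with an unadjusted p under 0.05 in that fit, 15 lay below and 4 above, Pcp4 and Wrb among those above. Olig1 and Olig2, neighbouring basic helix-loop-helix factors that specify the oligodendrocyte lineage, were 2 of the 4. Olig2, whose promoter is printed above, was at 20.2 to 46.6 CPM with Dp16 (median 27.9) and 20.5 to 49.0 CPM without (median 29.5). The sides overlapped almost wholly, and Olig2 lay 0.61 below the copy ratio on the log2 scale (value -0.61, edgeR adjusted p = 0.0121 with the slope).

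Olig1 was at 69.8 to 142.2 CPM with Dp16 (median 134.3) and 59.8 to 171.4 CPM without (median 106.8), at -0.45 from the copy ratio (edgeR adjusted p = 0.0121 with the slope). Its log2 fold change against libraries without Dp16 was 0.08 ± 0.20 without the slope and 0.14 ± 0.08 with it. Hunk, a kinase of the SNF1 family, was at 11.2 to 16 CPM with Dp16 and 8.94 to 19.1 CPM without, with equal medians of 13.7 CPM. It was at -0.60 from the copy ratio (edgeR adjusted p = 0.0385 with the slope). The last of the 4 was Gm9843, a processed pseudogene at -0.68 (edgeR adjusted p = 0.000355 with the slope), whose reads may belong to its parent gene.

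Most other genes of the oligodendrocyte lineage had values below 0, which are given here beside Olig1 and Olig2. In bulk cortex, fewer cells of a type and less RNA per cell cannot be told apart. Of 10 tested precursor genes outside the segment, 0 lay above 0 (median -0.25), and Ptprz1, a receptor phosphatase, was called with the slope at -0.31 ± 0.07 (edgeR adjusted p = 0.0165). Of 25 oligodendrocyte and myelin genes outside the segment, 3 lay above 0 (median -0.26), none was called by edgeR without the slope (6 had an unadjusted p under 0.05), and Enpp6, Ermn and Aspa fell with it. DESeq2 and voom each called Enpp6 alone of these 25. Their summed level ran from 7171.5 to 11319.4 CPM in Dp16-carrying libraries (median 9776.0) and from 9412.7 to 13058.0 CPM in those without (median 11457.1). Over all genes tested the median was -0.02 and 46.2% lay above 0. The part of lineage abundance in the Olig1 and Olig2 values was not tested.

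Enpp6, a choline phosphodiesterase of newly forming oligodendrocytes, was at 6.68 to 10.4 CPM with Dp16 (median 7.86) and 9.4 to 20.3 CPM without (median 14.5). It differed by -0.81 ± 0.16 (edgeR adjusted p = 0.0658 without the slope and 0.000311 with it). Anln, an actin-binding protein found in myelin, was at 43.5 to 62.7 CPM with Dp16 (median 57.3) and 65.7 to 129.5 CPM without (median 78.3). Anln was 1 of 2 genes whose 8 Dp16-carrying libraries all lay below the 8 others (0.0114% of genes), the other being the meiotic cohesin subunit gene Rec8. Anln differed by -0.59 ± 0.08 with the slope (edgeR adjusted p = 7.02e-05; 0.13 without it). Mbp, which encodes myelin basic protein, was at -0.34 ± 0.12 and was not called in either fit. Pmp22, a peripheral myelin protein, was at -0.46 ± 0.10 and was called with the slope (edgeR adjusted p = 0.00163).

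Outside the segment, 3 genes of 17446 were called by the fit without the slope. They were nonagouti (a, chromosome 2, 154791402 to 155051012), Selenov (chromosome 7, 28284652 to 28291186) and Cbs (chromosome 17, 31608894 to 31637238). The promoters of Selenov (chr7:28291187-28291436, minus strand) and Cbs (chr17:31637206-31637455, minus strand) are given as the 250 bases upstream of the RefSeq start on GRCm38.p6, with matches to the GC box GGGCGG in capitals, 1 in Selenov and 2 in Cbs.
Selenov: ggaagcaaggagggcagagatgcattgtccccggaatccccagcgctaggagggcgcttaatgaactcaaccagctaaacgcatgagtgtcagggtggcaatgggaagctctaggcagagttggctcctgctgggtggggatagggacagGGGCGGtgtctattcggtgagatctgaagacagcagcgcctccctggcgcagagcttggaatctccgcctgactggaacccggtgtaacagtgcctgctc
Cbs: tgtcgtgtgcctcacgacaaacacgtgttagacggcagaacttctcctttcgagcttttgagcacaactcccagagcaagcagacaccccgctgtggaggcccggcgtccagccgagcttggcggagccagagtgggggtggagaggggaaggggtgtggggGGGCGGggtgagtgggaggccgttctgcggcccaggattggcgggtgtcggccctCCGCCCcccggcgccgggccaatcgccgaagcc
As given above, 53.7% of the promoters of tested genes held the GC box.

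Selenov encodes selenoprotein V, known mainly from testis. It was at 3.28 to 7.49 CPM in Dp16-carrying libraries (median 4.21) and 0.429 to 1.97 CPM in those without (median 1.13). No library of one side reached the other, and the log2 fold change was 2.09 ± 0.28 (edgeR adjusted p = 0.00584). It was 2.02 between Dp16 and wild-type and 2.16 between 5xFAD-Dp16 and 5xFAD, and Selenov was called in each of the 16 fits that left out 1 library.

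Cbs encodes cystathionine beta-synthase, which condenses homocysteine with serine. Its human counterpart lies on chromosome 21, but the mouse gene lies outside the duplicated segment. It was at 9.33 to 15.6 CPM in Dp16-carrying libraries (median 11.8) and 13.8 to 31.0 CPM in those without (median 24.2). 1 wild-type library lay within the range of the Dp16-carrying ones. The log2 fold change was -0.96 ± 0.16 (edgeR adjusted p = 0.0199), with -0.94 between Dp16 and wild-type and -0.98 between 5xFAD-Dp16 and 5xFAD. In fits that left out 1 library it lay between -1.05 and -0.88 and was called in 5 of 16, with adjusted p of 0.000675 to 0.0671. With the slope it was -0.91 ± 0.10 (edgeR adjusted p = 1.43e-06).

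The other genes of this kind are given beside Cbs. Of 38 tested counterparts of human chromosome 21 genes on mouse chromosomes 10 and 17, 19 lay above 0, the median was -0.01, and Cbs was the 1 call, also by DESeq2 and voom. With the slope Dip2a was called as well, at -0.26 ± 0.06 (edgeR adjusted p = 0.0439). Cbs is expressed in astrocytes, and 18 astrocyte genes are given beside it. Of these 1 lay above 0, with a median of -0.22, none was called by DESeq2 or by edgeR without the slope (6 had an unadjusted p under 0.05), voom called 5, and Gja1 and Fgfr3 fell with the slope in the model (-0.28 ± 0.07 and -0.39 ± 0.09; edgeR adjusted p = 0.0484 and 0.0422). The summed level of the astrocyte genes ran from 8187.9 to 10408.2 CPM with Dp16 and from 8466.5 to 13938.7 CPM without. The part of astrocyte abundance in the Cbs value was not tested.

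Nonagouti is a coat-colour gene, for which C57BL/6J mice are homozygous for a recessive allele. It had 45 to 83 counts in each Dp16-carrying library, 478 in all, against 2 counts in all in the 8 others, of which 7 were at 0. The ratio was 229.7, with an exact Poisson 95% interval of 63.2 to 1902.3 that covers counting error only (edgeR adjusted p = 4.63e-07). The annotated nonagouti locus overlaps Raly and Eif2s2, whose log2 fold changes were 0.01 ± 0.15 and 0.00 ± 0.25. Which allele the Dp16 mice carry at this locus is not in the labels.

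**Figure D3:**
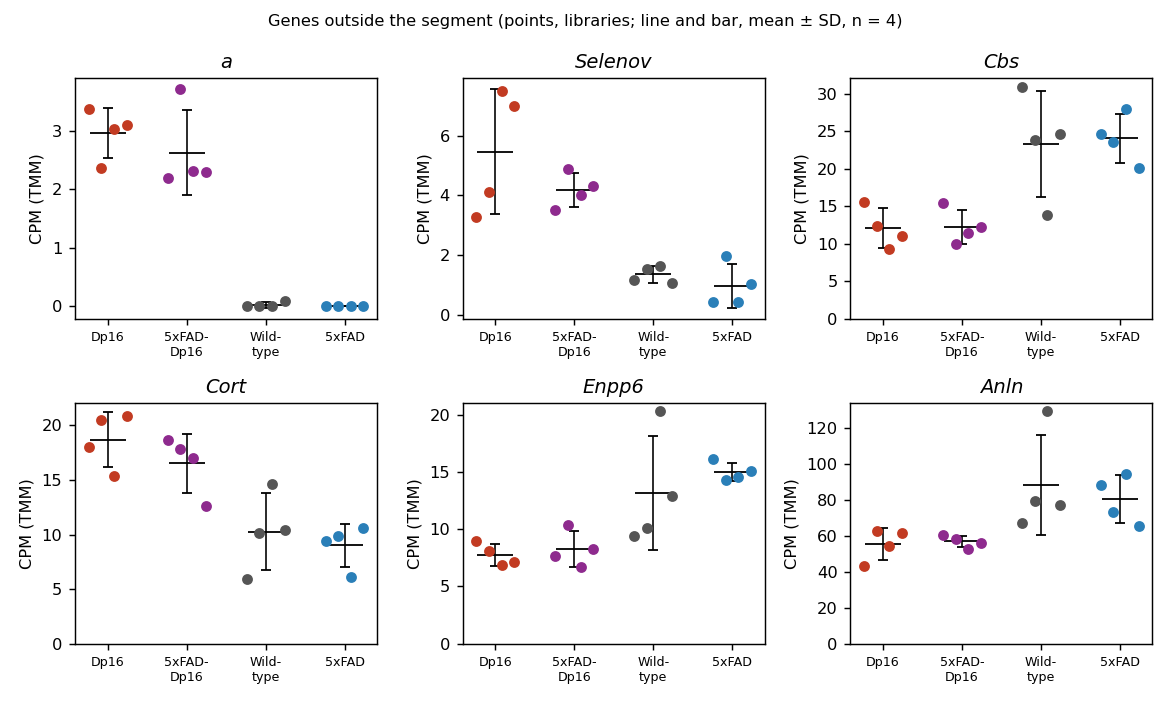
CPM of 6 genes outside the segment in each library (points), with the group mean and SD (n = 4). Libraries labelled Dp16 and 5xFAD-Dp16 lie above the others for a and Selenov without overlap, and below the others for Anln without overlap, while for Cbs, Cort and Enpp6 the sides touch or overlap.

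The fit with the slope called 39 higher and 87 lower genes outside the segment, these 3 among them. In that fit 12.9% of all genes outside the segment had an unadjusted p under 0.05, against 4.24% in the fit without the slope. Of the 39 higher, the median log2 fold change was 0.433 and 29 had an unadjusted p under 0.05 without the slope. Of the 87 lower, the median was -0.408 and 68 had an unadjusted p under 0.05 without it. In each set 4 genes changed by 1 or more on the log2 scale. Where RefSeq had an entry, the ETS letters were found in 0 of 37 promoters of the higher genes and 1 of 102 promoters of the lower genes, against 11.4% of the promoters of all tested genes. The GC box was in 45.9% of the higher and 56.9% of the lower genes' promoters (53.7% over all tested genes), the NFAT core in 16.2% and 14.7% (18.6%), and the E-box CAGATG in 5.41% and 11.8% (10.8%).

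Genes of neuropeptides and of a calcium buffer were among the higher ones, and were chosen after their values were seen. Cort, which encodes the somatostatin-related peptide cortistatin, was at 12.6 to 20.9 CPM with Dp16 (median 17.9) and 5.94 to 14.6 CPM without (median 10), with 1 wild-type library inside the range of the Dp16-carrying ones. Its log2 fold change was 0.87 ± 0.16 without the slope (edgeR adjusted p = 0.0553) and 0.88 ± 0.12 with it (5.44e-05). With the slope Crh, corticotropin-releasing hormone, rose by 0.59 ± 0.14 (edgeR adjusted p = 0.0369), its binding protein gene Crhbp by 0.43 ± 0.08 (0.00219) and Tac2, the neurokinin B precursor, by 0.68 ± 0.13 (0.00654). Calb1, the calcium buffer calbindin, rose by 0.35 ± 0.06 (edgeR adjusted p = 0.000698). None of these 5 was called by edgeR without the slope.

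Of these 5, Cort and Crh are on the list of 26 inhibitory neuron genes, and they were its 2 calls in the edgeR fit with the slope. The fit without the slope called 0 of the 26 (6 had an unadjusted p under 0.05), DESeq2 called Cort and voom called 3. Of the 26, 19 lay above 0, with a median of 0.10, of -0.02 between Dp16 and wild-type and of 0.22 between 5xFAD-Dp16 and 5xFAD. The Cort difference was 0.86 between Dp16 and wild-type and 0.88 between 5xFAD-Dp16 and 5xFAD. Other called higher genes were the iodide transporter gene Slc5a5 (0.68 ± 0.08, edgeR adjusted p = 7.84e-06 with the slope), the mitochondrial carrier gene Slc25a34 (0.65 ± 0.11, 0.00224) and the dehydrogenase gene Sdr42e1 (0.57 ± 0.12, 0.0132). Slc25a34, Sdr42e1 and Kyat1, with a and Selenov, were the 5 genes outside the segment whose 8 Dp16-carrying libraries all exceeded the 8 others.

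Lower genes with the slope included Idua, a lysosomal glycosidase (-0.65 ± 0.11, edgeR adjusted p = 0.00108), Plxnb3, a plexin of oligodendrocytes (-0.62 ± 0.11, 0.00299), and Grin2c, an NMDA receptor subunit (-0.49 ± 0.08, 0.00108). The hedgehog receptor gene Ptch1 was lower at -0.35 ± 0.08 (edgeR adjusted p = 0.036 with the slope). Of 17 hedgehog and Notch genes 2 lay above 0, the median was -0.39, and none was called by edgeR without the slope (3 had an unadjusted p under 0.05), against 1 by DESeq2 and 2 by voom. Gli1, a transcriptional target of hedgehog signalling, was at 0.0514 to 1.93 CPM with Dp16 and 1.39 to 3.82 CPM without, a log2 fold change of -1.53 ± 0.42 that was not called in either edgeR fit (adjusted p = 0.514 without and 0.0648 with the slope). Gli1 was the gene that DESeq2 called.

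The pooled effect averages a pair of effects that share no library, one without and one with the transgenes. The segment median was 0.546 between Dp16 and wild-type and 0.574 between 5xFAD-Dp16 and 5xFAD, and it was 0.56 in females and 0.573 in males. All 39 higher and 87 lower genes outside the segment had the same sign in both states, which averaging favours. The direct test of a difference between the states called 0 genes (0%; edgeR, 238 with an unadjusted p under 0.05, none of them in the segment), and DESeq2 called 1. The test of a difference between females and males called 0 genes (0%; edgeR, 242 with an unadjusted p under 0.05, 3 of them in the segment), and DESeq2 also called 0. These counts do not show that the effects were equal.

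**Figure D4:**
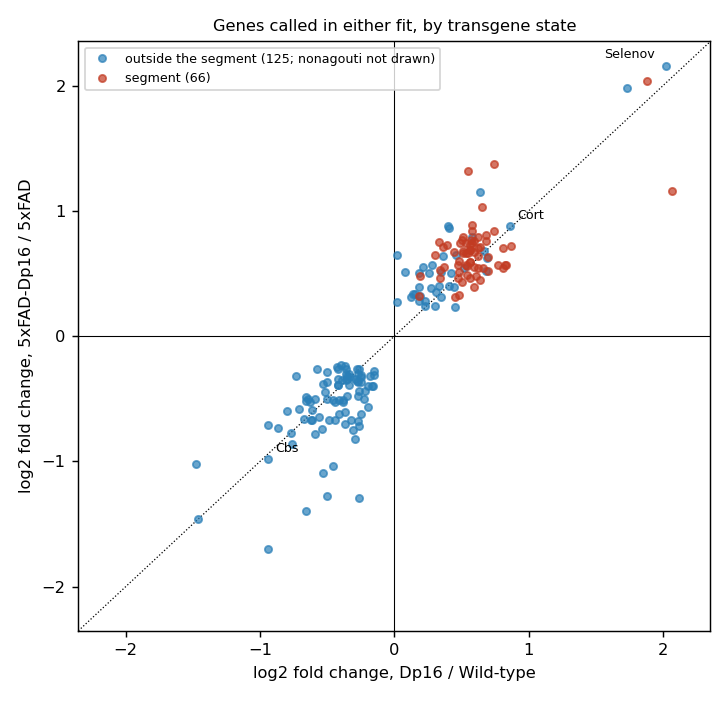
Log2 fold change of 5xFAD-Dp16 over 5xFAD (vertical) against that of Dp16 over wild-type (horizontal) for the 66 segment genes and 125 other genes called in either fit, where nonagouti, called as well, is not drawn. The dotted line marks equal effects, and each gene lies in the upper right or the lower left quadrant, which the pooled choice of genes favours.

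Other gene classes are given for the pooled effect and, for MHC class II and microglial genes, for each state. The difference between states was not tested for a class. Of 6 MHC class II genes 1 lay above 0 (median -0.51), with a median of 0.37 between Dp16 and wild-type and -1.45 between 5xFAD-Dp16 and 5xFAD. The 32 plaque-associated microglial genes outside the segment had a median of -0.29, with 2 above 0, and of 0.04 between Dp16 and wild-type and -0.62 between 5xFAD-Dp16 and 5xFAD. The 19 homeostatic microglial genes had a median of -0.36 with 0 above 0, and of -0.16 between Dp16 and wild-type and -0.46 between 5xFAD-Dp16 and 5xFAD. Their summed level was 2299.3 to 3643.7 CPM with Dp16 and 2068.4 to 4750.3 CPM without. None of these microglial or MHC class II genes was called by edgeR without the slope. In that fit 9 homeostatic, 4 plaque-associated and 0 MHC class II genes had an unadjusted p under 0.05, against 4.24% of all genes outside the segment. Sall1, a transcription factor of microglia, was the 1 called by edgeR with the slope (-0.36 ± 0.09, adjusted p = 0.0439). DESeq2 called 0 of these microglial and MHC class II genes, and voom called 4 homeostatic, 3 plaque-associated and 0 MHC class II genes. Over all genes voom also called more than DESeq2 or either edgeR fit. Ribosomal protein genes were 0 of 39 above 0 (median -0.20) and mitochondrially encoded genes 0 of 13 (median -0.19), while nuclear genes of oxidative phosphorylation were 24 of 47 with a median of 0.0. None of these was called by DESeq2, voom or edgeR without the slope (0, 2 and 0 had an unadjusted p under 0.05 in edgeR). With the slope Rpl13 was the 1 call (-0.24 ± 0.06, edgeR adjusted p = 0.0445). Without the slope it was -0.35 to -0.01 with 1 library left out. The summed ribosomal level was 14386.8 to 27615.4 CPM with Dp16 and 12690.0 to 42902.6 CPM without.

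Kcne2 and Clic6 had the highest fold changes among segment genes with a mean log2 CPM of 1 or more. Below that level Gm5678 (1.96 ± 0.41) and Ripk4, a kinase gene (1.61 ± 0.34), lay between them and rose with the slope (edgeR adjusted p = 0.0176 and 0.0301). Kcne2 and Clic6, a potassium channel subunit and a chloride channel protein of choroid plexus, were at 0.0514 to 25.3 CPM and 0.943 to 50.7 CPM with Dp16, against 0.0 to 7.42 CPM and 0.437 to 6.11 CPM without. Their log2 fold changes of 3.21 ± 1.20 and 1.52 ± 0.65 were not called in either fit. Without 5xFAD-Dp16 replicate 4, the library at 50.7 CPM, Clic6 was at 0.80, and without 5xFAD replicate 4 Kcne2 was at 4.67. The 17 choroid plexus and ependyma genes outside the segment are given beside them. Of these 15 lay above 0, the median was 1.63, and none was called in either edgeR fit, by DESeq2 or by voom (8 had an unadjusted p under 0.05 in edgeR without the slope). Their summed level was 222.8 to 3035.2 CPM with Dp16 (median 709.6) and 255.1 to 881.8 CPM without (median 309.8). Ttr, the transthyretin gene that choroid plexus expresses most strongly, was at 5.21 to 2181.9 CPM with Dp16 and 9.59 to 615.0 CPM without. The part of choroid plexus tissue in the Kcne2 and Clic6 values was not tested.

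**Figure D5:**
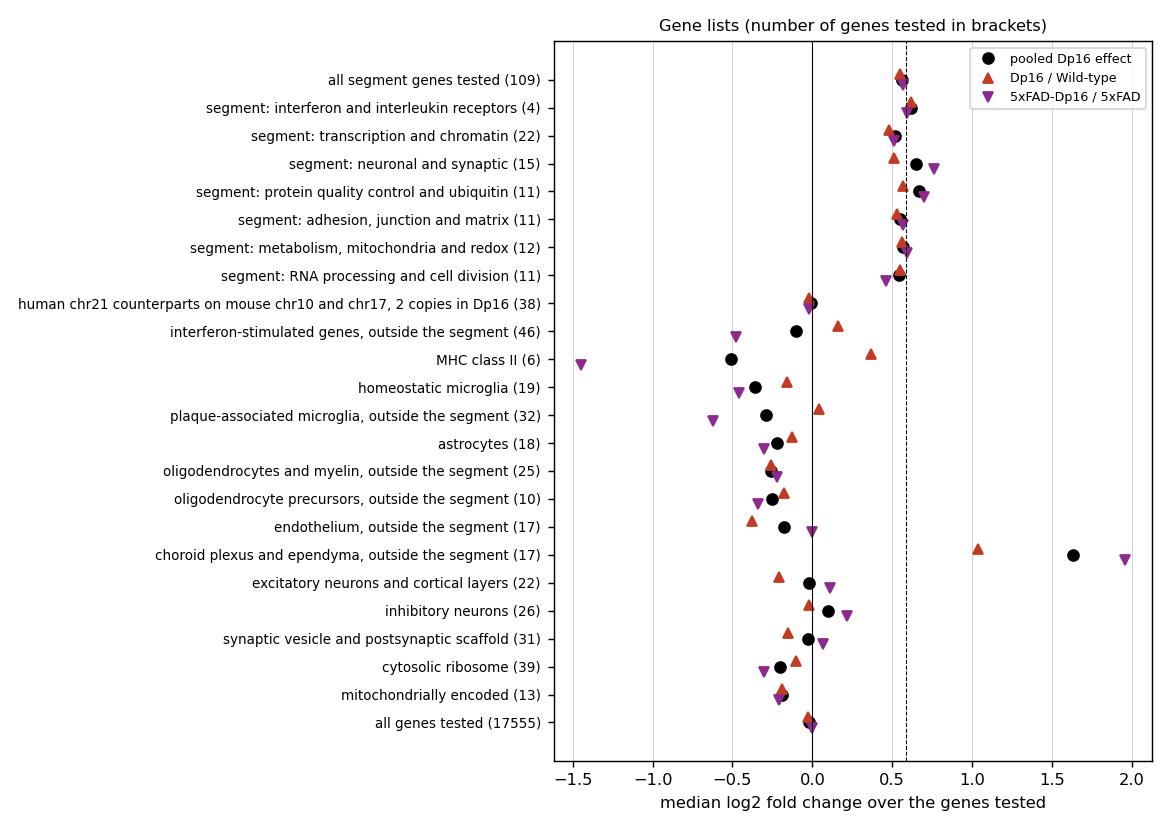
Median log2 fold change of gene lists, with the number of genes tested in brackets, for the pooled effect (circles), Dp16 over wild-type (triangles up) and 5xFAD-Dp16 over 5xFAD (triangles down). The dashed line marks 1.5-fold. Segment lists lie at 0.52 to 0.67, the counterparts of human chromosome 21 genes on other chromosomes at -0.01, and the choroid plexus list at 1.63.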

How the data were processed

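Polyadenylated RNA of brain cortex from 16 mice was sequenced. Per the labels' protocols, TRIzol was used for extraction, and the kit (Universal Plus mRNA, Tecan/Nugen) marks strand. Per the submitters' processing notes, the build was GRCm38 and the tools included HTSeq 0.6.1, HISAT2 2.1.0, FastQC 0.11.5, bcl2fastq and SAMtools 1.5. No source used here says if HTSeq counted by strand, so overlapping and antisense genes are uncertain. The authors deposited raw read counts per gene, without normalization, and RPKM values that they scaled by gene length and library total. Gene lengths implied by the 2 deposited tables deviated from whole numbers by at most 8.5e-09, so the RPKM values are the same counts rescaled.

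Positions came from GENCODE M21 on GRCm38, which matched all but 241 of 55385 identifiers. Promoters came from RefSeq (GRCm38.p6), matched by symbol for 12556 of 17543 tested symbols. Counts were tested with edgeR 4.0.16 in R 4.3.3 by the robust quasi-likelihood test, after TMM scaling and the filterByExpr filter (minimum count 10), in a model with terms for sex, 5xFAD status and Dp16. The alternative fit added each library's length slope, computed over protein-coding genes whose mean log2 CPM exceeded 2. The copy-ratio test used an offset of log 1.5 for segment genes in Dp16-carrying libraries. Per-library segment medians used genes whose mean log2 CPM was 1 or more. The fits were tested on simulated data.

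Members, lists and tests were chosen with earlier results of these data known. Named genes were App, and inside the segment the 12 called genes of smallest p, the 5 of highest and 5 of lowest fold change among those with a mean log2 CPM of 1 or more, genes off the copy ratio, and the member of smallest p in each role list. Outside it they were the 10 higher and 10 lower called genes of smallest p in either fit, with an approved symbol, and the 2 members of smallest p in each other list. Other genes named were chosen for their roles or after their values were seen, and some that the rule selects are not described. Alternatives were a model without sex, one without the low-count filter, RLE size factors, DESeq2 1.42.0, a replicate block with and without the slope, 4 group means, limma 3.58.1 (voom with quality weights, or limma-trend on log2 RPKM with 0.1 or 1 added), and fits without 1 or 3 libraries. The labels describe no litters or cohorts, so p-values measure the spread between these mice.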

Additional observations from a re-analysis of the deposited data

Results flagged for a closer look

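In 80 groups of 4 libraries, covering 17 genes and 3 library measures, 3 libraries stood apart from the rest of their group by the gap to the nearest library. Chance gives about 1 in 20 groups. Nonagouti was highest in 5xFAD-Dp16 replicate 2, at 3.71 CPM. It was highest among wild-type libraries in replicate 4, at 0.094 CPM, which held both of the counts found in libraries without Dp16. Ttc3 was lowest among wild-type libraries in replicate 3, at 790.3 CPM, the library with the lowest length slope.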

How the results depend on the processing

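The number of genes called in the pooled comparison moved with the tool far more than the segment's median did. All fits with the low-count filter, DESeq2 and voom among them, took in 17555 genes, of which 109 lay in the segment. For all genes, segment genes and genes outside it, the counts of 16, 13 and 3 became 65, 31 and 34 with DESeq2; 112, 43 and 69 with no low-count filter; 192, 66 and 126 with the length slope; 51, 36 and 15 when the 3 lowest-slope libraries were left out; 315, 56 and 259 with voom and quality weights; 25, 20 and 5 with limma-trend on log2(RPKM + 0.1); and 27, 20 and 7 on log2(RPKM + 1). Without the sex term, genes called outside the segment numbered 5. The cause of these moves was not tested. RLE size factors and the replicate block each left 16 calls, and 4 group means gave 17. The replicate block with the length slope gave 373, 67 and 306. Of 24 same-numbered pairs 12 correlated above 0.1 (range -0.63 to 0.85). The best match in another group had the same number in 15 of 48 cases. Whether same-numbered libraries share a batch was not tested. With each library left out in turn the counts ranged from 11 to 36, 9 to 26 and 2 to 10, the highest without wild-type replicate 3; outside the segment, 6 were called without wild-type replicate 1 or Dp16 replicate 1.

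The segment median of 0.56 was 0.60 without the 3 libraries, 0.60 on log2(RPKM + 0.1) and 0.45 on log2(RPKM + 1), and 0.53 to 0.60 with 1 library left out. With the length slope, the 192 calls became 401 with DESeq2 and 120 to 210 with 1 library left out, with 124, 120, 126 and 122 without wild-type replicate 4, 5xFAD-Dp16 replicates 2 and 3 and 5xFAD replicate 2 in that order. The difference between transgene states gave 1 call with DESeq2. Segment genes off the copy ratio numbered 0 without the length slope, 4 with it, and 4 without it when no low-count filter was used. The fits with 1 library left out were made without the slope and gave 0 each. They do not bear on the 4 genes called with the slope.

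Signs turned for these genes. Olig1 was -0.06 with voom and -0.05 to 0.15 with 1 library left out, Olig2 -0.16 to 0.01, and Gm9843 0.16 with voom and -0.22 to 0.16. Hunk was 0.02 without the 3 libraries, 0.03 and 0.02 on the RPKM scales and -0.09 to 0.08 with 1 library left out. Erg was 0.15 with the slope, with or without the block, 0.07 on log2(RPKM + 0.1) and -0.25 to 0.13 with 1 library left out, and Pmch, far from 0 at -2.75, was -3.0 to 0.02. Of the 37 segment genes of lowest level 31 lay above 0, and 0 were called without and 5 with the length slope; the part of depth in this was not tested.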
